A study of Homo sapiens with 8 samples.

Results

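Cytochrome c oxidase, or complex IV, is the last enzyme of the mitochondrial respiratory chain and passes electrons to oxygen. Its catalytic core is encoded in mitochondrial DNA and made inside the organelle. Around that core sit small subunits encoded in the nucleus, translated by cytosolic ribosomes and imported, and footprints on their mRNAs are described here. The 10 genes were chosen as a list of Ensembl gene IDs, with no threshold on a measured value, but as short and abundant mRNAs and with earlier results of these data known: COX4I1 (ENSG00000131143.10), COX5A (ENSG00000178741.12), COX5B (ENSG00000135940.7), COX6A1 (ENSG00000111775.3), COX6B1 (ENSG00000126267.11), COX6C (ENSG00000164919.11), COX7A2 (ENSG00000112695.13), COX7B (ENSG00000131174.7), COX7C (ENSG00000127184.13) and COX8A (ENSG00000176340.4). All 10 were found among the 19580 transcripts of the table, 1 transcript per gene, and all 10 passed the filter of a mean of at least 1 RPKM (reads scaled to transcript length and to the total of the library).

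The libraries were ribosome footprints of HAP1 cells, an adherent human line with a nearly haploid genome that goes back to a chronic myeloid leukaemia. The groups were RNF14 knockout at 30 min, RNF14 knockout at 0 min, wild type at 30 min and wild type at 0 min of recovery, with 2 biological replicates each. Every group had received the uridine analogue 4-thiouridine (4SU, 5 uM, 18 h) and then UVA light (6 kJ/m2), which bonds the labelled RNA to proteins, so no group was free of crosslinking. RNF14, a ubiquitin ligase, marks proteins at stalled ribosomes. Whether the knockout was 1 clone is not stated in the labels. The tests ask whether footprints on these mRNAs changed during recovery, and whether the loss of RNF14 altered them.

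The libraries at 30 min held between 323946 and 717828 reads on the listed transcripts, against 778683 to 1241975 at 0 min. Depth and recovery time can therefore not be told apart. RNA abundance was not analysed here, so fewer footprints may mean less mRNA or less translation of it, and fewer cells or less RNA per cell cannot be told apart either. RPKM is scaled to the total of each library, so a level also moves when other transcripts gain or lose share. A change common to all transcripts would not show. The files pair no ID with a gene name, so the RNF14 transcript, markers of the cell line and the other respiratory chain genes were not looked up.

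The promoters of these genes were examined because respiratory chain genes in the nucleus are known to be bound by GABPA (also called NRF-2), NRF1 and YY1. Windows of 250 bases before to 50 bases after the annotated start (RefSeq, GRCh38.p14) were at hand for 9 of the 10 genes, in 10 windows, since COX7A2 had a pair of starts. No window was at hand for COX6C, so it was not searched. The GABPA core CCGGAAG, searched on both strands, lay in the windows of 5 genes, COX4I1, COX5B, COX6A1, COX6B1 and COX8A, and in 10.3% of all 35116 windows. The NRF1 core GCATGCGC, searched likewise, lay in the windows of 2 genes, COX5B and COX6A1, and in 3.05% of all windows. A longer form of the NRF1 motif, of 10 letters, lay in 0 of the 10 windows, against 5.78% of all windows. The YY1 motif AAGATGGCG lay in 0 of the 10 windows, against 1.75% of all windows, and other forms of the YY1 motif were not searched. The motifs may overlap one another. The first 4 sequences below are the 60 bases just before the start of genes that hold the core there, with the core in capitals (CTTCCGG is the same core on the other strand). The fifth, COX7B, is shown as a gene without it. All 5 genes lie on the plus strand and the sequences read 5′ to 3′.
COX6A1, chr12:120438053-120438112: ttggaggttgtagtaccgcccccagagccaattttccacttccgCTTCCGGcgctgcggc
COX5B, chr2:97646002-97646061: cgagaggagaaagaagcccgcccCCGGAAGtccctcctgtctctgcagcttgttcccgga
COX6B1, chr19:35648263-35648322: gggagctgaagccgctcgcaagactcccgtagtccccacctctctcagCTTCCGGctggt
COX8A, chr11:63974560-63974619: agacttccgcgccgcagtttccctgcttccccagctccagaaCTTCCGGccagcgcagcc
COX7B, chrX:77899408-77899467: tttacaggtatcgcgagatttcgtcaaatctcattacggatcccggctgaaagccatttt
A match is a description of these letters and not a bound site. COX6A1, COX6B1 and COX8A carry the core within 18 bases of the start, at -16 to -10, -12 to -6 and -18 to -12, and COX5B carries it at -37 to -31 and again across the start at -5 to 2, where it runs past the printed end and is left in lower case. COX4I1 carries the core just after the start, at 3 to 9, and its sequence is not printed. Genes with the core are found among those with the highest and the lowest footprint level below.

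All 10 mRNAs were read heavily in every library, which their choice as short and abundant mRNAs already implies. Their mean level over the 8 libraries ranged between 441 and 2209 RPKM, against a median of 12.5 RPKM for the 11920 tested transcripts, and the lowest of them stood at the 98.6th percentile. The median listed transcript of the 10 was 687.5 nt long, and that of all tested transcripts 2625 nt. The share of reads on all 10 was 0.550% and 0.591% in the RNF14 knockout at 30 min, against 0.612% and 0.620% at 0 min. In wild type this share was 0.651% and 0.618% at 30 min, against 0.513% and 0.612% at 0 min. The wild-type shares at 30 min lay above those at 0 min, narrowly at 0.618% against 0.612%, and the knockout shares at 30 min lay below. These differences in share were not tested. Separation without overlap was common: in wild type 14% of all tested transcripts were higher at 30 min and 38.9% lower. In the knockout 18.6% were higher and 30.9% lower. In wild type 9 of the 10 subunits had a positive difference as deposited, against 31.0% of all tested transcripts. With another scaling of the libraries (TPM), 3 of the 10 did, against 17.5% of all.

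The highest and the lowest subunit differed from each other by more than any one subunit differed between libraries. COX8A, a small transmembrane subunit, was the highest in all 8 libraries, at 2209 ± 208 RPKM (SD over the 8 libraries), 5.01 times the mean of COX6A1. Its lowest library, at 1809 RPKM, lay above the highest of every other subunit. COX7B, a small transmembrane subunit, averaged 1134 ± 138 RPKM, COX6B1, which faces the intermembrane space, 1080 ± 104 RPKM and COX5A, which faces the matrix, 984 ± 126 RPKM (SD, n = 8 each). The ranges of these 3 overlapped, with COX7B above COX6B1 in 6 of 8 libraries and COX6B1 above COX5A in 7 of 8. COX5A was above COX6C, the next, in 8 of 8.

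By RPKM a lower tier held COX6C at 676 RPKM, COX5B at 662 RPKM, COX7A2 at 630 RPKM, COX4I1 at 623 RPKM and COX7C at 569 RPKM (means of 8 libraries). Of these COX5B carries a zinc ion, COX4I1 is the largest of the nuclear-encoded subunits, and COX6C, COX7A2 and COX7C are single-span membrane proteins. Neighbours in this tier were not ordered the same way in all libraries: COX6C was above COX5B in 5 of 8, COX5B above COX7A2 in 5 of 8, COX7A2 above COX4I1 in 3 of 8 and COX4I1 above COX7C in 7 of 8. COX6A1, the isoform of subunit VIa found in most tissues, was last at 441 ± 119 RPKM (SD, n = 8), below COX7C in 6 of 8 libraries. Its relative spread was the widest of the 10, with a highest library 1.94 times its lowest, against 1.33 times for COX8A.

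Levels per kilobase depend on the transcript that the authors listed. COX7C was listed with 1584 nt, where the other 9 had between 435 and 773 nt. In reads per 1000000 reads, not divided by length, COX7C was second of the 10 at 902, behind COX8A at 1091, whereas it was ninth by RPKM. COX6B1, with the shortest listed transcript at 435 nt, had rank 3 by RPKM but rank 8 at 470 reads per 1000000. That is below COX6C, COX7A2 and COX4I1 at 504, 487 and 475. COX5B moved from rank 6 to rank 9, so the tiers above hold for RPKM only. COX6A1 was last on both scales, at 237 reads per 1000000. RefSeq also names pseudogenes after 9 of the 10 genes, 53 in all, 18 of them for COX6C, 6 for COX6A1 and 0 for COX8A. How reads shared with such copies were counted is not stated in the labels, so those 9 levels are uncertain to that extent.

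**Figure D1:**
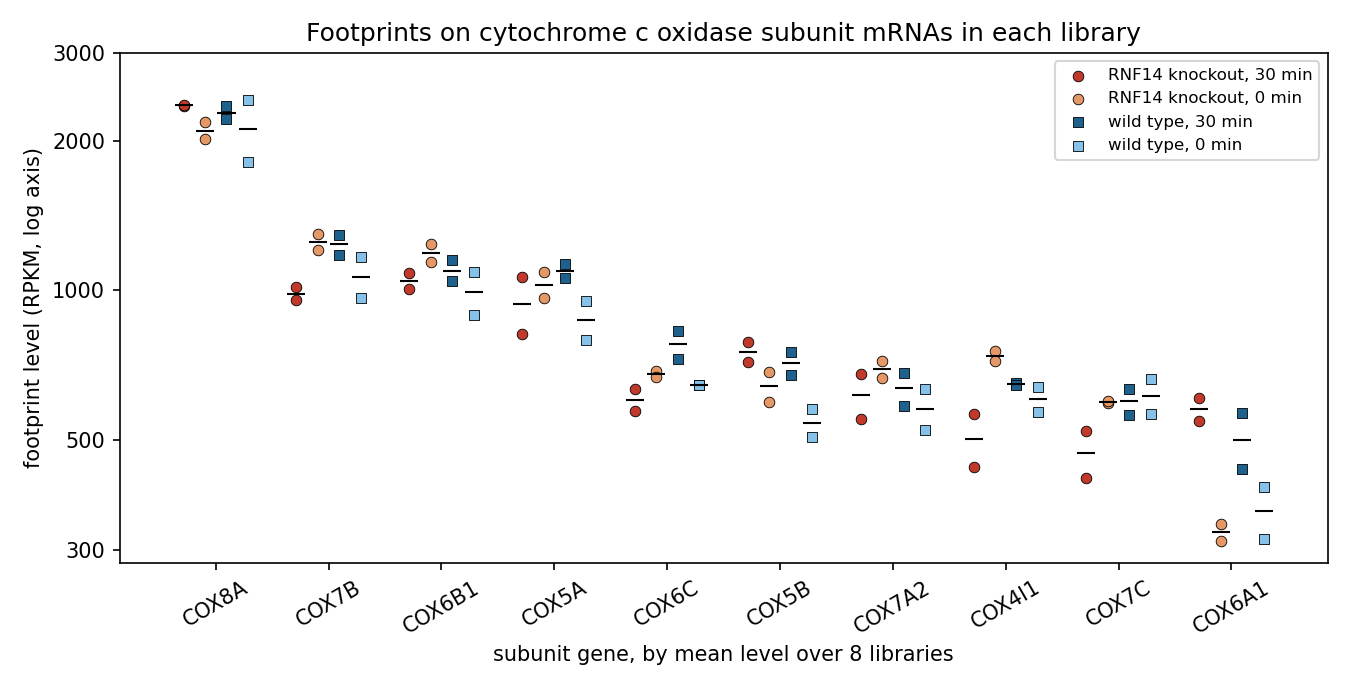
Footprint level of each subunit mRNA (RPKM, log axis) in the 8 libraries, by group; points are libraries and lines are means of 2. COX8A stands alone near 2209 RPKM, and COX6A1, at the right, has its 4 libraries at 30 min above its 4 libraries at 0 min.

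During recovery COX6A1 was the 1 subunit of 10 that passed the test. It had 546 and 608 RPKM in the RNF14 knockout at 30 min, against 313 and 340 RPKM at 0 min. In wild type it had 566 and 436 RPKM at 30 min, against 316 and 402 RPKM at 0 min. All 4 libraries at 30 min thus lay above all 4 at 0 min, a separation in that direction shown by 3.17% of all tested transcripts. None of the other 9 subunits was separated in either direction over both genotypes, and 10% of all tested transcripts were separated as lower.

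Averaged over genotypes, COX6A1 rose by 0.65 on the log2(RPKM + 1) scale (SE 0.12, 95% interval 0.37 to 0.93, limma-trend adjusted p = 0.0150, Benjamini-Hochberg over all 11920 tested transcripts). It was 1 of the 10 subunits called, in a comparison that called 7.79% of all tested transcripts, 2.45% as higher. Counted as reads, COX6A1 had 584 of 2017411 at 30 min against 712 of 3883000 at 0 min. The ratio of these shares was 1.58, with an exact 95% binomial (Clopper-Pearson) interval of 1.41 to 1.76 that covers counting error only. The rise was of like size without the shallowest library, knockout at 30 min replicate 1, at 0.69 (limma adjusted p = 0.0268). The call was lost without knockout 0 min replicate 1 (0.62, limma adjusted p = 0.0809), knockout 0 min replicate 2 (0.68, limma adjusted p = 0.0624) or wild type 30 min replicate 1 (0.56, limma adjusted p = 0.0655), and over all 17 alternatives the adjusted p ranged between 0.000969 and 0.110.

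In the RNF14 knockout alone COX6A1 rose by 0.82 (SE 0.18, limma-trend adjusted p = 0.0464), with 577 ± 44.0 RPKM at 30 min against 326 ± 18.5 RPKM at 0 min (SD, n = 2 each). It was the 1 subunit of 10 called there, where 1.97% of all tested transcripts were called, 0.646% as higher, and the call held in 6 of 18 alternatives. It was lost, among others, with the replicate number as a block (limma adjusted p = 0.0591) and without any 1 of the 4 knockout libraries (limma adjusted p between 0.0902 and 0.295). In wild type COX6A1 had 501 ± 91.4 RPKM at 30 min against 359 ± 61.3 RPKM at 0 min (SD, n = 2 each), a log2 difference of 0.48 that did not pass (SE 0.18, limma-trend adjusted p = 0.162). The difference between these recoveries was 0.34 (95% interval -0.21 to 0.90, limma-trend adjusted p = 0.572), so a difference between the genotypes was not shown.

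A ratio within each library does not depend on how libraries are scaled to each other. COX6A1 stood at 0.694 and 0.849 of the median of the other 9 subunits in the knockout at 30 min, against 0.415 and 0.471 at 0 min. In wild type it stood at 0.751 and 0.526 at 30 min, against 0.489 and 0.608 at 0 min. The knockout libraries were separated by time on this measure and the wild-type libraries overlapped. By RPKM, 18.6% of all tested transcripts were higher without overlap in the knockout. The ratio reuses the reads in which COX6A1 was called, so it is not separate support. A difference between the genotypes was not tested on it.

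**Figure D2:**
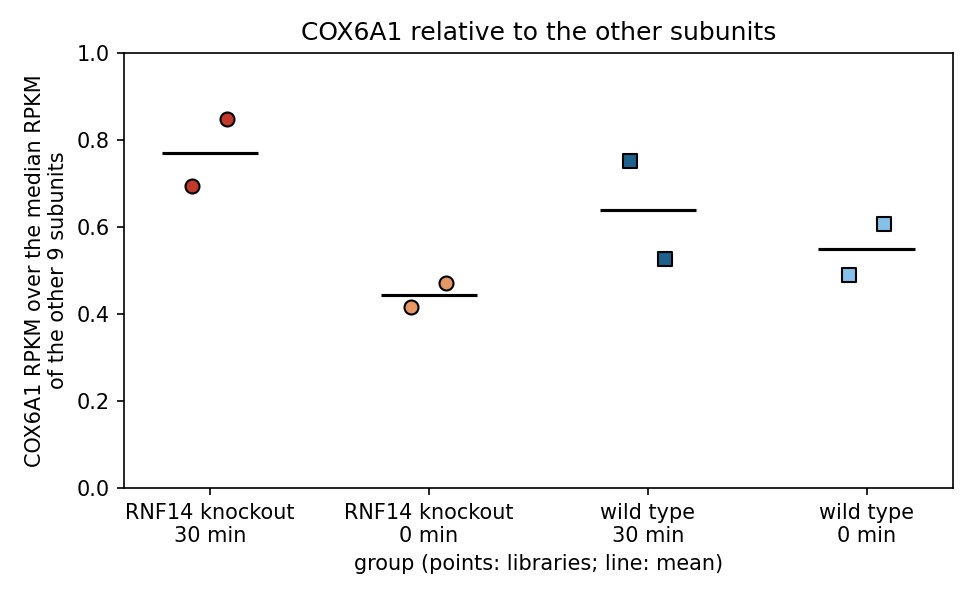
COX6A1 RPKM divided by the median RPKM of the other 9 subunits in the same library, by group; points are libraries and lines are means of 2. The knockout at 30 min, with a mean of 0.771, lies above the knockout at 0 min, with a mean of 0.443, while wild type at 30 min and at 0 min overlap. A difference between the genotypes was not tested on this ratio.

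For the other 9 subunits no change in recovery passed the test in either genotype or in the average. In the knockout, log2 differences of the 10 subunits ran between -0.56 and 0.82 with a median of -0.18, against -0.12 for all tested transcripts. Without knockout 30 min replicate 1 the median of the subunits was -0.12, and without knockout 30 min replicate 2 it was -0.24. In wild type they ran between -0.03 and 0.48 with a median of 0.18, where the median of all tested transcripts was -0.26, and 0 of 10 were called with limma-trend, which called 3.23% of all tested transcripts. An unadjusted p below 0.05 was reached by 2 of 10, against 20.9% of all, and limma voom called 0 of 10, against 9.87% of all. Without wild type 0 min replicate 1 or 2 the wild-type median of the subunits was 0.05 and 0.31. In wild type 9 of 10 subunits had a positive difference as deposited, against 31.0% of all tested transcripts. With libraries centred on their median 10 of 10 did, against 52.0% of all. With TPM 3 of 10 did, against 17.5% of all, and after quantile normalization 5 of 10, against 48.8% of all. The count of positive subunits thus rests on the scaling. The median of the subunits was -0.12 with TPM, against -0.54 for all tested transcripts. With median centring it was 0.46 against 0.02, and after quantile normalization -0.01 against -0.02. In the knockout 3 of 10 were positive as deposited, against 41.3% of all. The count was also 3 with TPM and with median centring, against 33.9% and 46.7% of all. After quantile normalization 6 of 10 were positive, against 49.6% of all.

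COX4I1, which enters the enzyme early in its assembly, showed the most negative difference in the knockout. It had 441 and 565 RPKM at 30 min, against 755 and 720 RPKM at 0 min, so the groups did not overlap. The log2 difference was -0.56 (SE 0.15, 95% interval -0.90 to -0.23) and did not pass (limma-trend adjusted p = 0.0862). With TPM it was -0.68 and passed (limma adjusted p = 0.0194), as it did at -0.74 without knockout 30 min replicate 2 (limma adjusted p = 0.0367). In wild type COX4I1 had 652 and 645 RPKM at 30 min, against 569 and 638 RPKM at 0 min, a log2 difference of 0.10.

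COX7B and COX7C were also lower in both knockout libraries at 30 min than in both at 0 min. COX7B had 955 and 1014 RPKM against 1204 and 1297 RPKM, a log2 difference of -0.34 (SE 0.13, limma-trend adjusted p = 0.210). COX7C had 419 and 521 RPKM against 594 and 598 RPKM, a log2 difference of -0.35 (SE 0.16, limma-trend adjusted p = 0.267). Neither passed as deposited, and with TPM COX7B did (-0.46, limma adjusted p = 0.0369). In all, 5 subunits were lower without overlap in the knockout, COX4I1, COX6B1, COX6C, COX7B and COX7C, as were 30.9% of all tested transcripts, and 3 were higher, COX5B, COX6A1 and COX8A, as were 18.6%.

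By log2 difference COX5B came closest to COX6A1 in wild type, and neither passed the test there. COX5B had 753 and 676 RPKM at 30 min, against 506 and 577 RPKM at 0 min. Its log2 difference was 0.40 (SE 0.14, limma-trend adjusted p = 0.150, against 0.162 for COX6A1). In the knockout it had 787 and 716 RPKM at 30 min, against 684 and 597 RPKM at 0 min. Averaged over genotypes the difference was 0.32 (SE 0.10, limma-trend adjusted p = 0.0852), which did not pass. In wild type 6 subunits were higher at 30 min without overlap, COX4I1, COX5A, COX5B, COX6A1, COX6C and COX7B, as were 14% of all tested transcripts, and 0 were lower, where 38.9% of all tested transcripts were. COX8A, the most read of the 10, had 2350 and 2358 RPKM in the knockout at 30 min against 2011 and 2176 RPKM at 0 min, and 2205 and 2348 RPKM in wild type at 30 min against 1809 and 2412 RPKM at 0 min.

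**Figure D3:**
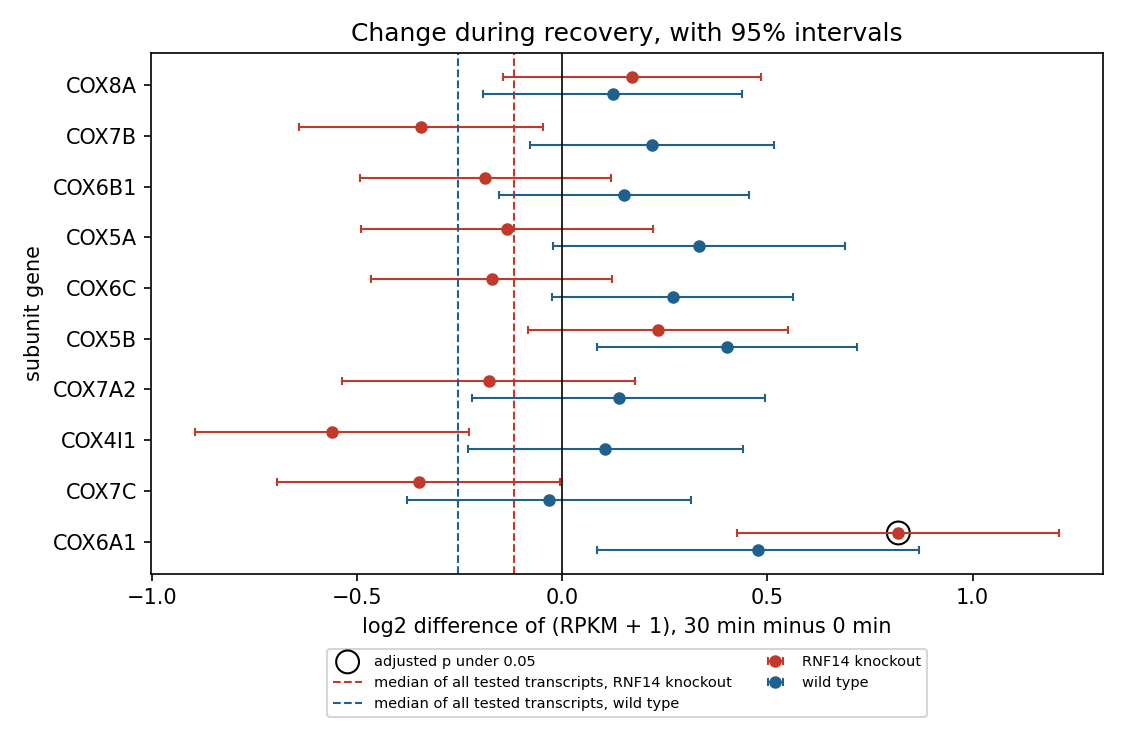
Log2 difference of RPKM + 1 between 30 and 0 min for each subunit, in the RNF14 knockout (red) and wild type (blue), with unadjusted 95% intervals; dashed lines mark the median of all tested transcripts, -0.12 and -0.26. The ringed point, COX6A1 in the knockout at 0.82, is the 1 that passed an adjusted p of 0.05.

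Between the genotypes no subunit passed the test at either time. At 30 min, log2 differences of RNF14 knockout minus wild type ran between -0.38 and 0.21 with a median of -0.15, which turned to 0.03 after quantile normalization, and the median of all tested transcripts was 0.02. Without knockout 30 min replicate 2 the median of the subunits was -0.24 and without wild type 30 min replicate 1 it was -0.09. With limma-trend 0 of 10 were called, against 0.126% of all tested transcripts. An unadjusted p below 0.05 was reached by 4 of 10, against 10.9% of all, and limma voom called 0 of 10, against 0.176% of all. COX4I1 had 441 and 565 RPKM in the knockout against 652 and 645 RPKM in wild type, a log2 difference of -0.38 (SE 0.15, limma-trend adjusted p = 0.411). COX6C had 572 and 634 RPKM in the knockout against 727 and 829 RPKM in wild type, a log2 difference of -0.37 (SE 0.13, limma-trend adjusted p = 0.355). COX7C differed by -0.35 and COX7B by -0.33 (SE 0.16 and 0.13, limma-trend adjusted p = 0.449 and 0.416). These 4 were lower in the knockout without overlap, as were 18.3% of all tested transcripts, and COX8A was higher, as were 20.2%.

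At 0 min the log2 differences ran between -0.13 and 0.29 with a median of 0.24, which turned to -0.01 after quantile normalization, and the median of all tested transcripts was -0.08. With limma-trend 0 of 10 were called, against 0.168% of all tested transcripts. An unadjusted p below 0.05 was reached by 0 of 10, against 13.6% of all, and limma voom called 0 of 10, against 6.97% of all. Here 7 subunits were higher in the knockout without overlap, as were 21.5% of all tested transcripts, and 0 were lower, where 29.4% of all were. Wild type at 0 min replicate 1 had the lowest share of reads on these mRNAs of all 8 libraries, 0.513%, and without it the median difference was 0.10. Without knockout 0 min replicate 1 it was 0.15, and without wild type 0 min replicate 2 it was 0.35. The unadjusted 95% intervals of the 10 subunits reached -0.52 at the low end and 0.63 at the high end at 0 min, and -0.71 and 0.61 at 30 min.

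**Figure D4:**
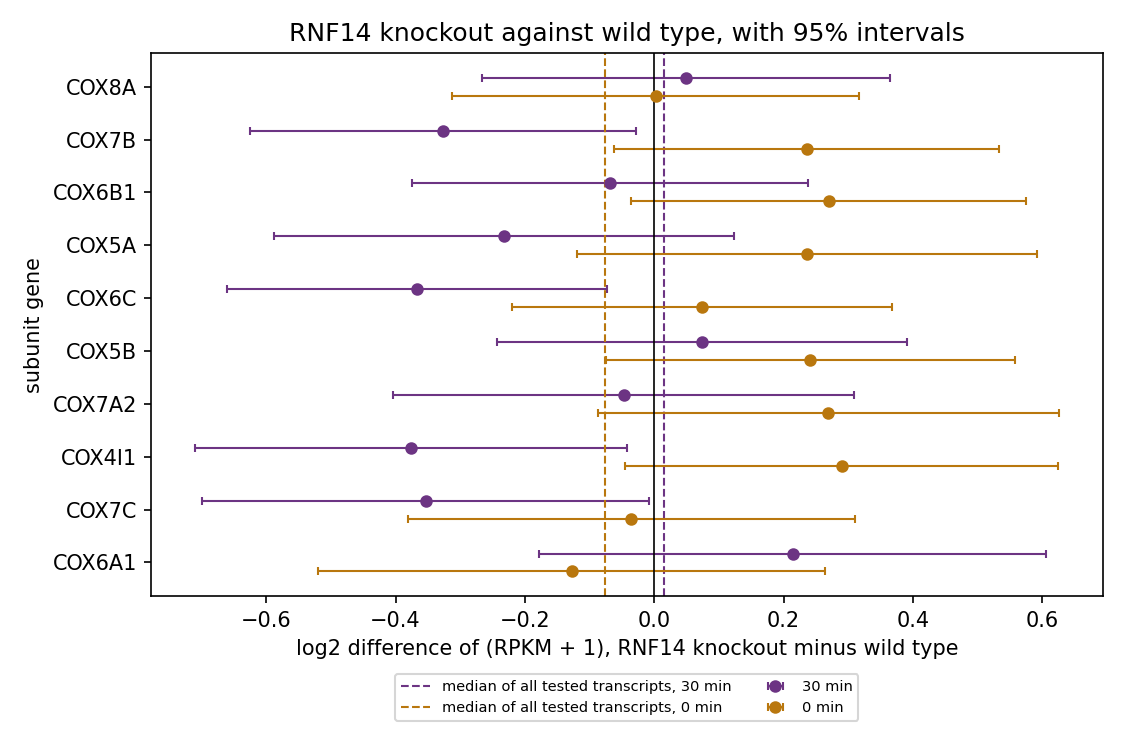
Log2 difference of RPKM + 1, RNF14 knockout minus wild type, for each subunit at 30 min (purple) and 0 min (ochre), with unadjusted 95% intervals; dashed lines mark the median of all tested transcripts. No subunit passed an adjusted p of 0.05, and COX4I1, COX6C, COX7B and COX7C have their intervals below 0 at 30 min.

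The test of the difference in recovery, RNF14 knockout minus wild type, called 0 of 10 subunits with limma-trend, against 0.00839% of all tested transcripts. An unadjusted p below 0.05 was reached by 3 of 10, against 13.3% of all, and limma voom called 0 of 10, against 1.03% of all. The differences had a median of -0.33, where the median of all tested transcripts was 0.09, and 8 of 10 were negative, against 45.2% of all. Without wild type 0 min replicate 1 the median of the subunits was -0.20, and without wild type 0 min replicate 2 it was -0.45. COX4I1 was the most negative at -0.67 (SE 0.21, 95% interval -1.14 to -0.19, limma-trend adjusted p = 0.251), followed by COX7B at -0.56 (SE 0.19, limma-trend adjusted p = 0.266). COX5A stood at -0.47. COX6C came after it at -0.44 (SE 0.19, limma-trend adjusted p = 0.356). With TPM 7 of 10 were negative, against 36.4% of all, and with median centring 9 of 10, against 56.3% of all. After quantile normalization 4 of 10 were negative, against 51.0% of all, and the median of the subunits turned to 0.06.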

How the data were processed

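Per the submitters' processing notes, reads were processed with cutadapt and STAR 2.7.10a on hg38. Neither the counted region nor the choice of transcript nor the treatment of reads with several matches is recorded there. Values deposited by the authors are RPKM for 19580 transcripts in 8 libraries, with transcript lengths; the column of knockout at 30 min replicate 1 has a suffix that no label explains. RPKM times length gave whole reads for 100% of values above 0 (tolerance 0.05), from which reads and depth were taken.

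Groups were tested with limma-trend (version 3.58.1 of limma in R 4.3.3) on log2(RPKM + 1). The 11920 transcripts whose mean reached 1 RPKM entered 1 model of all 8 libraries, with 4 group means and 4 degrees of freedom left. Tests were two-sided, p-values were adjusted by Benjamini-Hochberg, and 0.05 was the threshold; the procedure was tested on simulated data. Fold changes on this scale understate those of low transcripts, but these 10 are high. Alternatives were leaving out each library, limma voom on the recovered reads, only the groups compared, a replicate block, a prior without trend, TPM, quantile normalization, median centring, no filter, and pseudocounts of 0.1 and 5. Levels per coding length were not run, as no protein lengths were at hand.

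The members were chosen, and named all 10, with earlier results of these data known. Differences are given with their statistics where the unadjusted p was below 0.05, and for COX6A1 also in the difference in recovery; that choice was made after values were seen. Gene lists of the other respiratory complexes were not run, since 0 IDs matched the gene table. Summaries and figures used Python 3.11.15, pandas 2.3.3, numpy 2.4.6, scipy 1.17.1 and matplotlib 3.10.9.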

Additional observations from a re-analysis of the deposited data

How the results depend on the processing

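Of the 10 subunits, 1 was called in knockout recovery as deposited and 0 with a pseudocount of 0.1, no filter, median centring, no trend, only the groups compared, or the replicate block; with TPM 3 were called (COX6A1 up, COX4I1 and COX7B down), where TPM called 4.79% of all tested transcripts, 4.05% as lower. Leaving out each library gave 0 to 1, and without knockout 30 min replicate 2 that 1 was COX4I1, with 4.35% of all called. In the recovery averaged over genotypes 1 was called as deposited, 0 without a filter or without a trend, 4 with TPM (COX6A1 up, COX4I1, COX7B and COX7C down, where TPM called 18.2% of all, 16.3% as lower), 2 after quantile normalization (COX6A1 up, COX8A down, of 5.61% of all), and 0 to 1 on leaving out each library. In wild-type recovery, with 0 as deposited, quantile normalization called 1, COX8A, at -0.69 against 0.12 as deposited, and 3.52% of all. The cause of these changes was not tested. The genotype comparisons and the difference in recovery called 0 subunits in all alternatives.

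The 16 subunit differences printed with their statistics kept their sign in all 282 alternative values. Of these values 17, all of COX6A1, lost the call and 3 gained one. COX6A1 ranged between 0.44 and 0.82 in the average and between 0.70 and 1.07 in the knockout. Over all tested transcripts, calls ranged between 0 and 571 in knockout recovery (235 as deposited), 2 and 1385 in wild-type recovery (385), 99 and 2165 in the average (929), 3 and 831 for genotype at 0 min (20), 1 and 124 at 30 min (15), and 1 and 123 for the difference in recovery (1). Same-numbered libraries did not deviate together over the tested transcripts (r between -0.08 and 0.07). Whether the numbers mark a shared batch is not stated in the labels. Apart from knockout recovery, the replicate block changed no count of subunits. COX6A1 rested on 95 to 218 reads per library, the fewest of the 10.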
